A study of Mus musculus with 8 samples.

Results

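Hormones of the ovary and the pituitary act on the mammary epithelium through receptors, and cells that carry those receptors pass the signal on to their neighbours through secreted factors. The receptors Prlr, Esr1 and Pgr were followed here in single cells of the pubertal mouse gland, with the secreted mediators Areg and Wnt4, the transcriptional regulators Foxa1, Gata3, Tbx3 and Cited1, and the secreted glycoprotein gene Stc2. These 10 genes were picked by name as receptors of this system and genes tied to their action. All 10 were found among the 14883 gene rows of the deposited table.

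In the textbook account, estrogen binds the receptor encoded by Esr1 in luminal cells, and amphiregulin, the product of Areg, is released from those cells and acts on the epidermal growth factor receptor of other cells to drive growth of the ducts. Progesterone acts through Pgr and induces Wnt4, whose product acts on nearby cells, and prolactin acts through Prlr and the kinase Jak2 on Stat5. Foxa1 and Gata3 bind DNA with the estrogen receptor, and Cited1 is a coactivator of it.

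Cells came from ducts and from terminal end buds, the structures at which ducts lengthen in puberty, of mice aged 5 weeks whose strain is given as mixed. The tissue of the 4th and 5th glands was dissociated and live cells were sorted into wells and counted by SORT-seq, which tags each well and each captured molecule. Plate 1 and plate 2 each carry 4 libraries of 96 wells. No label ties a library to ducts, to end buds or to an animal, so p-values here reflect variation among libraries that could be purely technical, and both structures are pooled throughout.

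Of 768 wells, 114 held at least 1500 transcripts and at least 500 genes and were taken as cells. They held 1505 to 57903 transcripts each, with a median of 9889. A cell was called luminal when its Krt8, Krt18 and Krt19 transcripts, keratins of the inner layer, exceeded those of Acta2, Tagln and Myl9, contractile genes of the outer layer, and basal in the reverse case. Luminal cells were split by Trf, transferrin, into secretory cells with at least 5 transcripts per 10000 and non-secretory cells with fewer. This gave 14 non-secretory, 28 secretory and 66 basal cells, while 6 cells held no transcript of the 6 naming genes. None of the 10 genes took part in the naming.

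The luminal cells came from libraries 1 and 3 of both plates, and 64 of the 66 basal cells from libraries 2 and 4. Plate 1 library 1 gave 2 non-secretory and 6 secretory cells, plate 1 library 3 gave 2 and 10, plate 2 library 1 gave 7 and 3, and plate 2 library 3 gave 3 and 9. The Trf values nearest the limit were 4.08 and 3.35 per 10000 below it and 6.73 and 12.2 above it. Median depth differed, at 17924 transcripts in non-secretory, 7102.5 in secretory and 13450.5 in basal cells. Markers of another cell type outnumbered the epithelial ones in 15 cells, of which 1 was non-secretory, 0 were secretory and 8 were basal. That non-secretory cell, in plate 1 library 1, held 21 transcripts of lymphocyte markers and only 2 of Wnt4 and 1 of Gata3 among the 10 genes. Of the 42 luminal cells, 1 held 10 or more transcripts of the basal naming genes. The 8 listed basal markers summed to 0.976 per 10000 in non-secretory, 1.05 in secretory and 133 in basal cells, with Krt5, Krt14 and Trp63 at 0 in both luminal classes. No cell was removed as a doublet, and 84 of the 114 cells sat at a well number that also gave a cell in another library.

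Reference promoter sequence is shown for Prlr, Foxa1, Cited1 and Areg, a receptor, both kinds of regulator and a mediator that stood far higher in non-secretory cells in the values given further on, to show which short motifs of the factors named above lie before their starts. Of the 10 genes, 9 matched the RefSeq promoter table of build GRCm38.p6, with 14 starts in all, and no promoter of Tbx3 was matched. Motifs were searched on both strands from 250 bases before to 50 after each start, and the 250 bases before the start are printed 5′ to 3′ on the strand of the gene. Capitals mark the motif matches, which do not overlap one another. The start of Prlr shown lies at chr15:10223656-10223905 on the plus strand, that of Foxa1 at chr12:57546112-57546361 on the minus strand, that of Cited1 at chrX:102250777-102251026 on the minus strand and that of Areg at chr5:91139349-91139598 on the plus strand.
Prlr: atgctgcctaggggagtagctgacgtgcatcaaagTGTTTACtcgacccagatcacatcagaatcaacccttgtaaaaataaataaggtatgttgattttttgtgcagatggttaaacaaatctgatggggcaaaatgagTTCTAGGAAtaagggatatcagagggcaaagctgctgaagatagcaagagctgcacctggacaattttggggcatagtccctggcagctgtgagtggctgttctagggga
Foxa1: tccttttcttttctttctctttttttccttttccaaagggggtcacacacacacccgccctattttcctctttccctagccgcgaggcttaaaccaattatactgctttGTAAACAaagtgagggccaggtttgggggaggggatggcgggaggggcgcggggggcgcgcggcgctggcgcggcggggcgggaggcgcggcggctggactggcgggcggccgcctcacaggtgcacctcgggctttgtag
Cited1: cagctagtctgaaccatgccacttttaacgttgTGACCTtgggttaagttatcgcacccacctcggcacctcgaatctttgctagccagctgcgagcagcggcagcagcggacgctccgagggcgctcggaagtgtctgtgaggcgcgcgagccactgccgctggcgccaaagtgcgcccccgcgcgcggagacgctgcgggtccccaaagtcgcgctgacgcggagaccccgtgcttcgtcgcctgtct
Areg: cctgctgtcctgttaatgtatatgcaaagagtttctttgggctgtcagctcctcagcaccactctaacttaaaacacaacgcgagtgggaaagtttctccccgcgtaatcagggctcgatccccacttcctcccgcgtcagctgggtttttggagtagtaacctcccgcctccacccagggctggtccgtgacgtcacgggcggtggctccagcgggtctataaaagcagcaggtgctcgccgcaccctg

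The forkhead motif TGTTTAC was matched in 2 of the 14 promoters, forward in the start of Prlr shown and in reverse in that of Foxa1. It was matched in 3.65% of all 32851 promoters. The STAT motif TTCNNNGAA was matched in 2, the same start of Prlr and a start of Esr1, and in 8.30% of all promoters. The single-arm estrogen response motif AGGTCA was matched in reverse in the start of Cited1 shown, alone among the 14, and in 16.3% of all promoters. The other starts of Prlr and of Cited1 held none of the 5 motifs, so those printed were the starts with a match. The palindromic estrogen response element was matched in 0 of the 14 and in 0.0700% of all promoters, and the GATA motif AGATAA in 0 of the 14 and in 11.2% of all. The window printed for Areg held no match to any of the 5 motifs.

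Among the 3 named classes all 10 genes had their highest pooled level in non-secretory cells. For Esr1 the lead was small, at 0.414 per 10000 against 0.371 in secretory cells. Levels are given as transcripts per 10000 of a class or cell. A transcript is counted once from its tagged end, so a level is not scaled by gene length, and genes are not ranked against each other here. Prlr, the receptor of prolactin, stood at 31.9 per 10000 in non-secretory cells, on 1080 transcripts. It stood at 2.60 in secretory cells, on 77 transcripts, and at 0.0356 in basal cells, on 4. Transcripts of Prlr were found in 13 of 14 non-secretory, 22 of 28 secretory and 4 of 66 basal cells. At the depth reached, the receptor was thus seen in most cells of both luminal classes, at a lower level in secretory ones. With each cell thinned to 1500 transcripts it was expected in 12.5 of 14 non-secretory and 10.4 of 28 secretory cells. Stray transcripts, taken up below, also bear on the secretory reading. By library, non-secretory cells held 22.1 and 31.7 per 10000 on plate 1 and 31.6 and 34.3 on plate 2, with a mean of 29.9 ± 5.38 (SD, n = 4 libraries). Secretory cells of the same libraries held 1.11, 4.26, 3.23 and 2.54, with a mean of 2.78 ± 1.32 (SD, n = 4). The ranges of the classes did not overlap.

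Pgr, the progesterone receptor, was found in the same 13 of 14 non-secretory cells as Prlr. Its level by library in these cells was 10.1 and 9.33 per 10000 on plate 1 and 10.3 and 11.0 on plate 2 (mean 10.2 ± 0.674, SD, n = 4). The value of 10.1, in plate 1 library 1, joins a cell at 18.4 per 10000 with the cell led by lymphocyte markers, at 0. The small SD therefore depends on counting that cell. Secretory cells held 0.111, 0.375, 0.808 and 0.175 in the same order (mean 0.367 ± 0.315, SD, n = 4). The 7 secretory transcripts of Pgr lay in 7 cells, at 1 each. Basal cells held 44 transcripts in 20 of 66 cells, or 0.392 per 10000 against 0.236 in secretory cells, and the exact Poisson 95% intervals of 0.285 to 0.526 and 0.0949 to 0.486 overlap. Basal and secretory cells thus followed non-secretory cells at levels that counting error alone does not separate. The pooled ratio of Prlr to Pgr transcripts was 3.15 (exact 95% counting interval 2.79 to 3.57) in non-secretory cells and 11 (5.09 to 28.3) in secretory cells. Those intervals cover counting error only. The secretory ratio rests on 7 Pgr transcripts, where the stray estimate taken up below gives 2.79. Single non-secretory cells held 8 Prlr to 1 Pgr transcript and 19 to 1, so the pooled ratios do not part the classes cell by cell.

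Esr1, the estrogen receptor gene, was barely sampled. It gave 14 transcripts in 6 of 14 non-secretory cells, 11 in 3 of 28 secretory cells and 5 in 5 of 66 basal cells, or 0.414, 0.371 and 0.0445 per 10000. The exact Poisson 95% intervals of the luminal classes, 0.226 to 0.695 and 0.185 to 0.664, overlap almost fully. A single secretory cell held 6 of the 11 transcripts, and without it the secretory level was 0.171. The 6 non-secretory cells with an Esr1 transcript had a median depth of 41176.5 transcripts and the 8 without one had 10815.5. A difference in Esr1 between the luminal classes was not detectable at this depth.

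Areg, the estrogen-induced growth factor, was found in most non-secretory cells and in few others. It gave 584 transcripts in 12 of 14 non-secretory cells (17.3 per 10000), 28 in 6 of 28 secretory cells (0.944) and 4 in 3 of 66 basal cells (0.0356). Non-secretory levels by library were 0 and 26.2 on plate 1 and 17.1 and 8.29 on plate 2 (mean 12.9 ± 11.3, SD, n = 4), a spread nearly as wide as the mean. The library at 0 is plate 1 library 1, whose 2 non-secretory cells held 10870 transcripts together, which allows up to 2.76 per 10000. All 28 secretory transcripts came from plate 1 library 3, and 19 of them, 67.9%, from 1 cell. That cell is also the secretory cell closest to the Trf limit, and without it the secretory level of Areg was 0.308.

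Wnt4, the progesterone-induced Wnt ligand, was spread more widely. It was found in all 14 non-secretory cells (110 transcripts, 3.25 per 10000), in 17 of 28 secretory cells (43 transcripts, 1.45) and in 42 of 66 basal cells (80 transcripts, 0.713). A single non-secretory cell of plate 2 library 3 held 51 of the 110 transcripts, 46.4%, and without it the level was 2.02. The 6 cells outside the classes held 8 Wnt4 transcripts in 3 cells, or 3.17 per 10000. By library, non-secretory cells held 3.68, 1.75, 2.19 and 7.15 per 10000 and secretory cells 1.44, 2.38, 0 and 0.964. These ranges overlap, and in plate 1 library 3 the secretory value was the higher.

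Among the regulators, Foxa1, a forkhead factor that opens chromatin for the estrogen receptor, gave 275, 13 and 1 transcripts in non-secretory, secretory and basal cells, or 8.13, 0.439 and 0.00891 per 10000. Its non-secretory level by library ran from 0.920 in plate 1 library 1, on 1 transcript, to 12.8 in plate 2 library 1. Cited1 gave 754, 22 and 3 transcripts (22.3, 0.742 and 0.0267 per 10000), and its non-secretory level ran from 0 in plate 1 library 1 to 38.0 in plate 1 library 3. Gata3, the zinc-finger factor of luminal identity, was the most evenly shared, at 14.2, 7.32 and 2.11 per 10000, in 14 of 14, 26 of 28 and 47 of 66 cells. Non-secretory cells held 9.20, 13.3, 13.9 and 16.6 per 10000 of Gata3 by library and secretory cells 7.32, 8.51, 8.08 and 6.40, so the ranges did not overlap although they lie close. Tbx3, a T-box factor of mammary development, gave 40 transcripts in non-secretory, 5 in secretory and 20 in basal cells (1.18, 0.169 and 0.178 per 10000). Stc2, which encodes stanniocalcin 2, gave 334, 15 and 1 transcripts (9.88, 0.506 and 0.00891 per 10000), with 3.68, 9.53, 9.87 and 11.2 per 10000 by library in non-secretory cells and 0.222, 1.25, 0 and 0.263 in secretory cells.

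**Figure D1:**
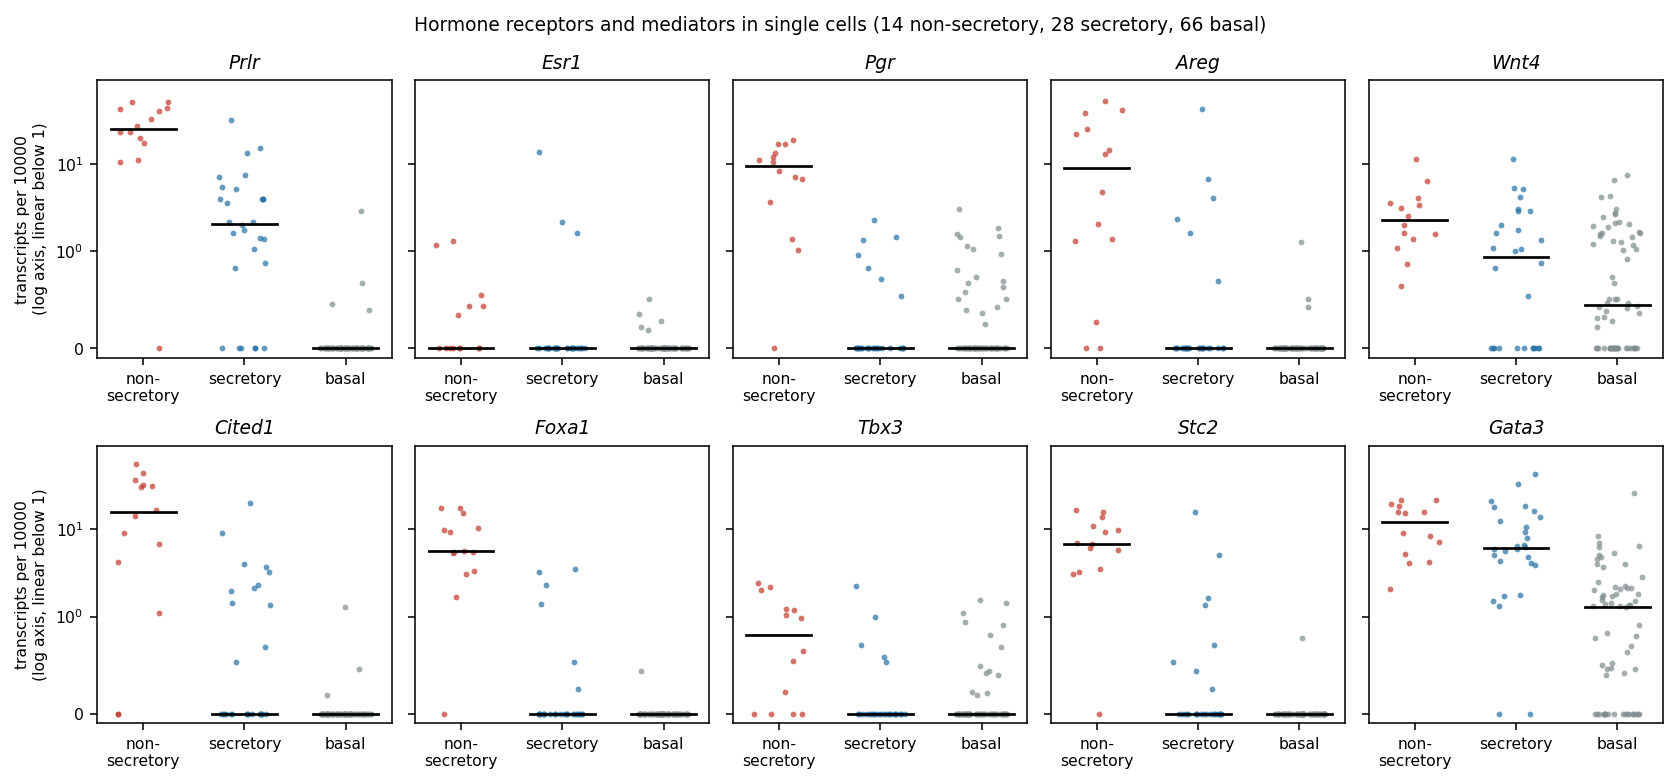
Each point is 1 cell and each panel 1 gene; the vertical axis is transcripts per 10000 of that cell (log axis, linear below 1) and the bar is the class median. Prlr, Pgr, Stc2 and Foxa1 stand above 0 in 13 of 14 non-secretory cells, Areg runs from 0 to 52.2 within that class, and Wnt4 and Gata3 are found in all 3 classes.

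Some transcripts in a well can come from other cells of the library. Wells of the same libraries with under 500 transcripts gave the mean number of such stray transcripts per well, and that number times the cells of the class was set beside the count. This takes each cell to receive as many stray transcripts as a nearly empty well. It also takes those wells to hold no poor cell of their own, which was not tested. A well of plate 2 library 4 with 352 transcripts held 5 of Prlr, 1 of the luminal naming genes and 0 of the basal ones. In secretory cells Prlr stood at 77 transcripts against 3.18 expected, Gata3 at 217 against 4.18, Stc2 at 15 against 1.21 and Pgr at 7 against 2.79. In basal cells Prlr stood at 4 against 2.25 and Foxa1 at 1 against 1.61, which is near the number that such wells give. Pgr at 44 against 0.227, Wnt4 at 80 against 0.396 and Gata3 at 237 against 1.92 stood well above it in basal cells. The reading in secretory cells depends on that scaling. Scaled to depth instead, as though every transcript of a cell were stray, the same wells give 200.5 for Prlr, 270.1 for Gata3, 76.2 for Stc2 and 180.0 for Pgr in secretory cells, all above the counts, and 9.12 for Pgr, 32.5 for Wnt4 and 189.8 for Gata3 in basal cells, all below them. In non-secretory cells the counts stood above both numbers for each of the 10 genes, as 1080 of Prlr against 483.3 by depth. Which scaling holds in secretory cells was not tested. Basal cells with a Pgr transcript had a median depth of 25518.5 transcripts and those without had 7593.

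**Figure D2:**
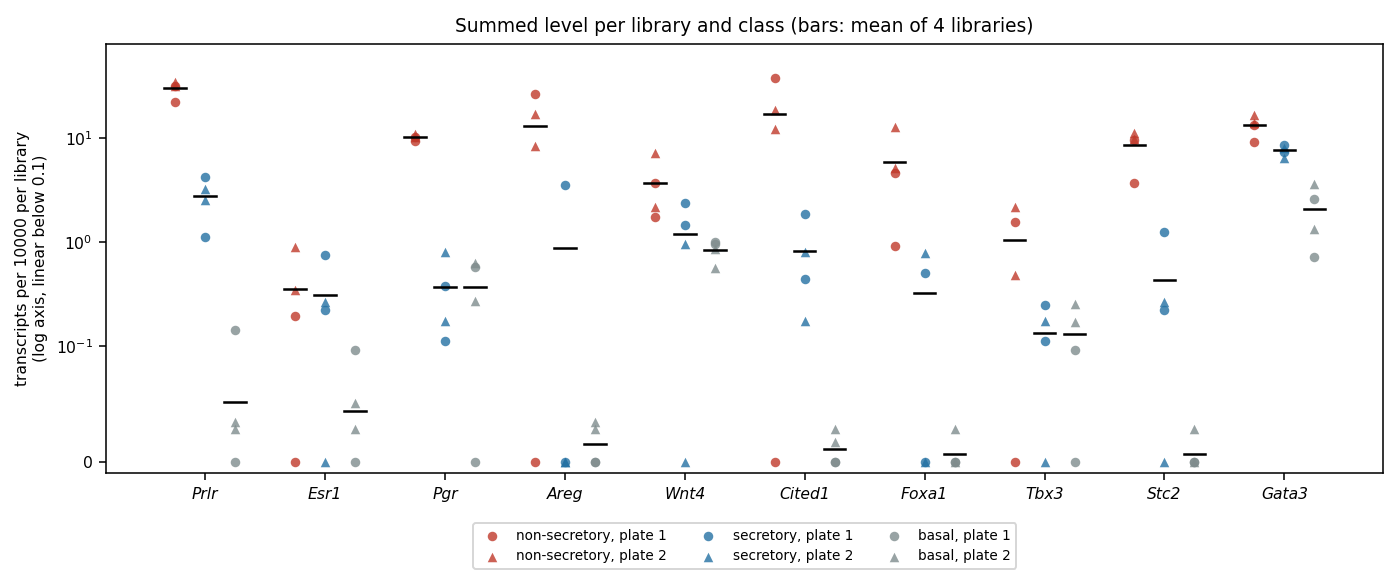
Each point is the summed level of 1 library in transcripts per 10000 (log axis, linear below 0.1), circles for plate 1 and triangles for plate 2, and the bar is the mean of 4 libraries, with basal sums of at least 5 cells. The non-secretory points of Prlr, Pgr, Foxa1, Stc2 and Gata3 lie above all secretory points, and those of Esr1, Areg, Wnt4, Cited1 and Tbx3 overlap them.

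The luminal classes were then compared within libraries. With at least 3 cells of both classes, 2 libraries entered, both of plate 2, and edgeR's quasi-likelihood test with the library as block called 120 of 2037 genes at an adjusted p under 0.05. Of these, 53 were higher in non-secretory cells, which is 2.60% of the genes tested. The low-count filter kept 8 of the 10 genes, leaving out Esr1 and Tbx3, and a gene scarce in secretory cells could enter only through the other class. Of the 8, 6 were higher in non-secretory cells and 2, Wnt4 and Gata3, did not pass. Pgr, Areg, Cited1, Foxa1 and Stc2, on 0 to 9 secretory transcripts each, entered in that way, so their direction was set by the filter. Among the called genes of the set, only Prlr, on 33, could have come out either way. The median log2 difference over all genes tested was 0.19.

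Prlr was higher by 3.53 ± 0.66 on the log2 scale (SE, edgeR adjusted p = 1.13e-05), on 730 against 33 transcripts, a pooled ratio of 12.5 (exact 95% counting interval 8.80 to 18.3). Pgr was higher by 5.10 ± 1.12 (edgeR adjusted p = 0.000286), on 236 against 3 transcripts, a ratio of 44.3 (15.0 to 217). Of the mediators, Areg passed with 315 against 0 transcripts (edgeR adjusted p = 2.00e-06), but it did not pass in DESeq2 (adjusted p = 0.579). Its level was 59.2-fold higher against a floor of 3 counts over the secretory group, and the exact 95% counting interval starts at 47.9. Wnt4 did not pass, with a difference of 2.92 ± 1.10 (edgeR adjusted p = 0.103). Among the regulators, Cited1 was higher by 5.44 ± 1.03 (edgeR adjusted p = 1.65e-05), on 363 against 3 transcripts, a ratio of 68.2 (23.2 to 332). Foxa1 was higher by 3.34 ± 0.99 (edgeR adjusted p = 0.0163). Gata3 did not pass at 1.09 ± 0.67 (edgeR adjusted p = 0.621), and its pooled ratio was 2.26 (1.77 to 2.91). Stc2 was higher by 5.44 ± 1.15 (edgeR adjusted p = 0.000147), a ratio of 43.6 (14.7 to 213) on 232 against 3 transcripts. The 2 genes outside the test had ratios of 2.25 (0.608 to 12.5) for Esr1 and 6.76 (1.68 to 59.1) for Tbx3. With no low-count filter 4 of the 6 calls were lost, those of Prlr (edgeR adjusted p = 0.229), Pgr (0.0742), Foxa1 (0.521) and Stc2 (0.0556), while Areg and Cited1 still passed. Without the library block the test called 191 genes in place of 120, and no call among the 8 changed.

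Plate 1 entered when 2 cells per sum were allowed, a choice made after seeing the data, and the 4 libraries then gave 74 genes higher in non-secretory cells, 4.95% of 1496 tested. Of the 10 genes 7 were tested, of which Pgr, Areg, Cited1 and Stc2 again entered mainly through the non-secretory sums. Prlr (3.42 ± 0.41), Pgr (5.10 ± 0.67), Areg (4.31 ± 0.71), Cited1 (4.09 ± 0.61) and Stc2 (4.00 ± 0.65) were higher, and Wnt4 (1.32 ± 0.64) and Gata3 (0.71 ± 0.41) did not pass, with edgeR adjusted p = 0.220 and 0.373. On plate 1 alone Areg did not pass (2.71 ± 0.97, edgeR adjusted p = 0.0866). A test of whether the class difference itself differed between plates called none of the 7, and the largest term was that of Areg (6.56 ± 2.12, edgeR adjusted p = 0.437). With cells led by another type's markers left out and 1 cell per sum allowed, also chosen after seeing the data, Foxa1 entered the test and passed at 3.35 ± 0.73 (edgeR adjusted p = 0.000615). Every non-secretory library level was above every secretory one for Prlr, Pgr, Foxa1, Stc2 and Gata3, 5 of 10 genes, while 2.91% of 12366 genes with a transcript showed this. For Foxa1 this rests on 1 transcript in the 2 non-secretory cells of plate 1 library 1, at 0.920 per 10000 against 0.789 in the highest secretory library. Areg and Cited1 overlapped through the same library, which held 0 of both. Non-secretory cells were deeper and held more of all 3 naming keratins than secretory cells, and the part of depth in these differences was not tested.

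Against basal cells, the luminal classes together were higher in every one of the 10 genes by pooled level. The comparison set 4 luminal library sums against 4 basal ones from other libraries. Class and library therefore cannot be told apart. EdgeR called 505 of 3420 genes, of which 229, or 6.70% of those tested, were higher in luminal cells. The filter kept 5 of the 10, and all 5 were higher. Prlr, with 4 basal transcripts in these sums, and Stc2, with 1, could pass the filter only through the luminal sums, so their direction was set by the filter. Pgr, at 0 to 0.625 per 10000 in basal libraries, also entered through the luminal sums, which left its direction little room. Prlr differed by 8.65 ± 0.78 on the log2 scale (edgeR adjusted p = 1.08e-05), Pgr by 3.67 ± 0.61 (0.000956), Wnt4 by 1.54 ± 0.34 (0.00736), Stc2 by 8.43 ± 0.98 (5.27e-05, on 349 against 1 transcripts, a ratio of 612 with a counting interval of 109 to 24234) and Gata3 by 2.32 ± 0.39 (0.000986). Of Wnt4, luminal libraries held 1.68 to 3.48 per 10000 and basal libraries 0.562 to 0.999, without overlap. Of Gata3 they held 7.53 to 13.5 and 0.714 to 3.58.

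For the genes below the filter the summed transcripts give the size. Cited1 stood at 776 luminal against 2 basal transcripts, a ratio of 680 (exact 95% counting interval 188 to 5626), and Foxa1 at 288 against 1, a ratio of 505 (89.9 to 20010). Areg stood at 612 against 3 (358, interval 122 to 1739), Esr1 at 25 against 5 (8.77, interval 3.30 to 29.3) and Tbx3 at 45 against 20 (3.94, interval 2.28 to 7.05). Every luminal library lay above every basal library for 8 of the 10 genes, and for 5.00% of 14386 genes with a transcript. Areg overlapped through plate 1 library 1, which held 0, and Tbx3 overlapped too, with unadjusted two-sided exact permutation p = 0.143 and 0.0857, where 0.0286 is the smallest that 70 splits allow. With cells led by another type's markers left out, 8 of the 10 genes were tested and all 8 were higher, beside 9.91% of 4209 genes. Areg, Cited1 and Foxa1, which entered there, could pass the filter only through the luminal sums, so their direction was set by the filter in each such test. Without plate 1 library 1 or 2 the test called 761 or 848 genes in place of 505. With each library left out in turn, the calls of Prlr, Pgr, Wnt4 and Gata3 held. Stc2 fell below the filter without library 3 of either plate. Areg, Cited1 and Foxa1 entered the test and passed without plate 1 library 1, 2 or 4 or plate 2 library 2 or 4, as Areg did at 8.54 without plate 1 library 1 (edgeR adjusted p = 1.11e-05).

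Receptor and mediator were mostly found in the same non-secretory cells. Of 14 such cells, 13 held at least 1 receptor transcript together with Areg or Wnt4, 92.9% (exact binomial 95% interval 66.1 to 99.8), and the exception was the cell led by lymphocyte markers. Prlr with Areg was found in 12 cells (85.7%, interval 57.2 to 98.2), Pgr with Areg in the same number, and Prlr with Wnt4 and Pgr with Wnt4 in 13 each. All 12 cells with Areg held both Prlr and Pgr. Esr1 with Areg was found in 6 cells and Esr1 with Wnt4 in 6, which is every non-secretory cell with an Esr1 transcript, and those 6 cells held all 3 receptors. When at least 2 transcripts of each gene were required, 12 cells still held a receptor with a mediator, Prlr with Areg were found in 10 and Esr1 with Areg in 3.

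By library, Prlr with Areg was found in 0 of 2 and 2 of 2 non-secretory cells on plate 1 and in 7 of 7 and 3 of 3 on plate 2. Cells of a library are not replicates, so no test was made over cells. In secretory cells a receptor with Areg or Wnt4 was found in 17 of 28, 60.7%, mostly as Prlr with Wnt4, found in 15. Prlr with Areg was found in 5 and Pgr with Areg in 3, all of them on plate 1, and Esr1 with Areg in 1. In basal cells Prlr with Areg was found in 0 of 66, but 64 of those cells lie in libraries without luminal cells, so this says nothing of stray joint detection in the luminal libraries. Of 294 wells under 500 transcripts in the luminal libraries, with a median of 105, 0 held Prlr with Areg, 2 held Pgr with Areg and 1 held Pgr with Wnt4, at a depth far below that of cells. Of 285 such wells in the other libraries, 2 held Prlr with Areg, both in plate 2 library 4, and 0 held Pgr with either mediator. The pair found in basal cells was Pgr with Wnt4, in 18 of 66 cells (27.3%) at 1 transcript of each or more and in 8 at 2 or more. Joint detection depends on depth, so the number expected with every cell thinned to 1500 transcripts was computed. For a receptor with a mediator it was 9.82 of 14 non-secretory, 4.36 of 28 secretory and 0.366 of 66 basal cells. For Prlr with Areg it was 7.67, 2.34 and 0, and for Pgr with Wnt4 3.13, 0.410 and 0.324. The order of the classes was the same with and without thinning for Prlr with either mediator, for Pgr with Areg and for any receptor with a mediator. It turned for Pgr with Wnt4, where basal cells stood above secretory cells as a share before thinning (27.3% against 17.9%) and below them after it. For Esr1 with Areg the expected numbers were 0.296 non-secretory and 0.915 secretory cells, the latter from the single cell with 6 Esr1 transcripts, and for Esr1 with Wnt4 they were 0.273 and 0.880. The order of the luminal classes turned for both Esr1 pairs, so none can be read.

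**Figure D3:**
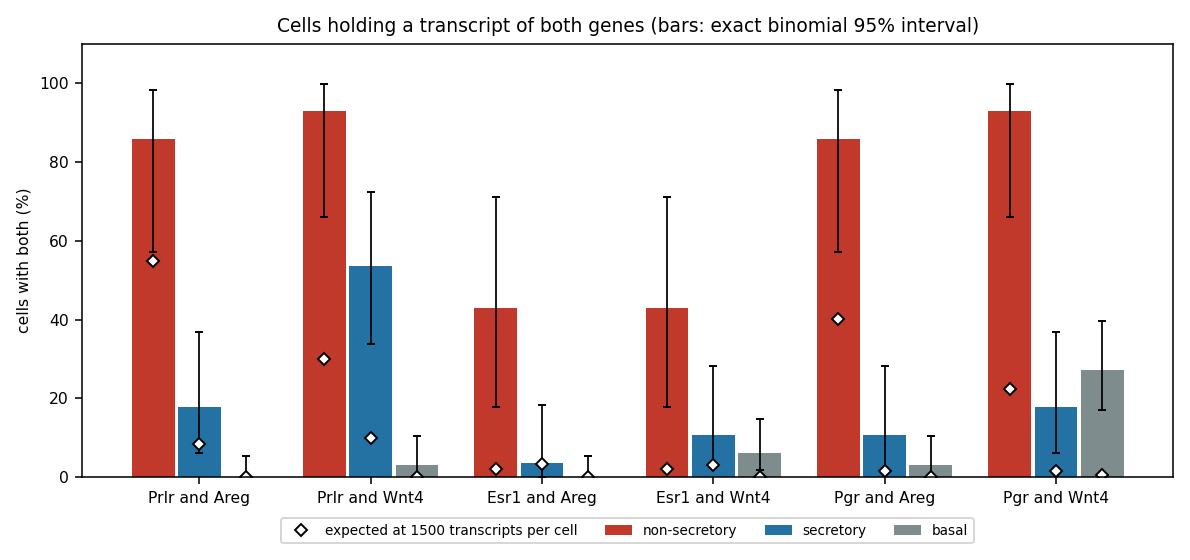
Bars give the percent of cells with a transcript of both genes in 14 non-secretory, 28 secretory and 66 basal cells, with exact binomial 95% intervals, and diamonds the percent expected at 1500 transcripts per cell. Prlr with Areg reaches 85.7% of non-secretory and 0% of basal cells, and diamonds of the Esr1 pairs lie near 0.

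The cells closest to carrying the whole set can be told one by one. Of the 10 genes, non-secretory cells held a median of 9, with 6 cells holding all 10 and 12 holding at least 8, while secretory cells held a median of 4 and basal cells a median of 2. Only 2 secretory cells held at least 8. One of them, in plate 1 library 3, had 4455 transcripts and a Trf level of 6.73 per 10000, just inside the secretory class. It held 14 transcripts of Prlr, 6 of Esr1, 1 of Pgr, 19 of Areg, 5 of Wnt4, 4 of Cited1, 7 of Stc2 and 19 of Gata3. Without this cell the secretory level of Prlr was 2.16 per 10000 in place of 2.60, and that of Stc2 0.274 in place of 0.506.

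Within the non-secretory class, levels of Prlr and Pgr went together from cell to cell, and those of Areg followed them only loosely. Across the 14 cells Spearman's rho of the levels was 0.82 for Prlr with Pgr, and 0.78 over the 13 cells left without the cell led by lymphocyte markers. For Prlr with Areg it was 0.36 and 0.23, for Pgr with Areg 0.10 and -0.09, and for Prlr with Wnt4 0.16 and 0.32. Cited1 ran the other way, with rho of -0.36 with Prlr and -0.38 with Pgr over 14 cells and -0.68 and -0.69 over 13. The points share libraries and differ in depth, levels of a cell share 1 total, and these values are descriptions of 14 cells.

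Named cells show what lies behind those values. Areg was at or below 4.71 per 10000 in 7 of the 14 cells and at or above 12.9 in the other 7. A cell of plate 1 library 3 held 226 Prlr, 75 Pgr and 186 Areg transcripts. A cell of plate 2 library 1 held 156 Prlr and 61 Pgr transcripts but 1 of Areg, and it is the luminal cell with 27 transcripts of the basal naming genes. A cell of plate 2 library 3 held 196 Prlr, 61 Pgr and 6 Areg transcripts, and it is the one with 51 of Wnt4. Cells rich in both receptors were therefore found with much and with hardly any Areg. The highest Cited1 level, 55.1 per 10000, was in a cell of plate 2 library 1 with 8 Prlr and 1 Pgr transcript among 7262. The other low-Pgr cell, of plate 2 library 3, held 31 Cited1, 19 Prlr and 1 Pgr among 9675.

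**Figure D4:**
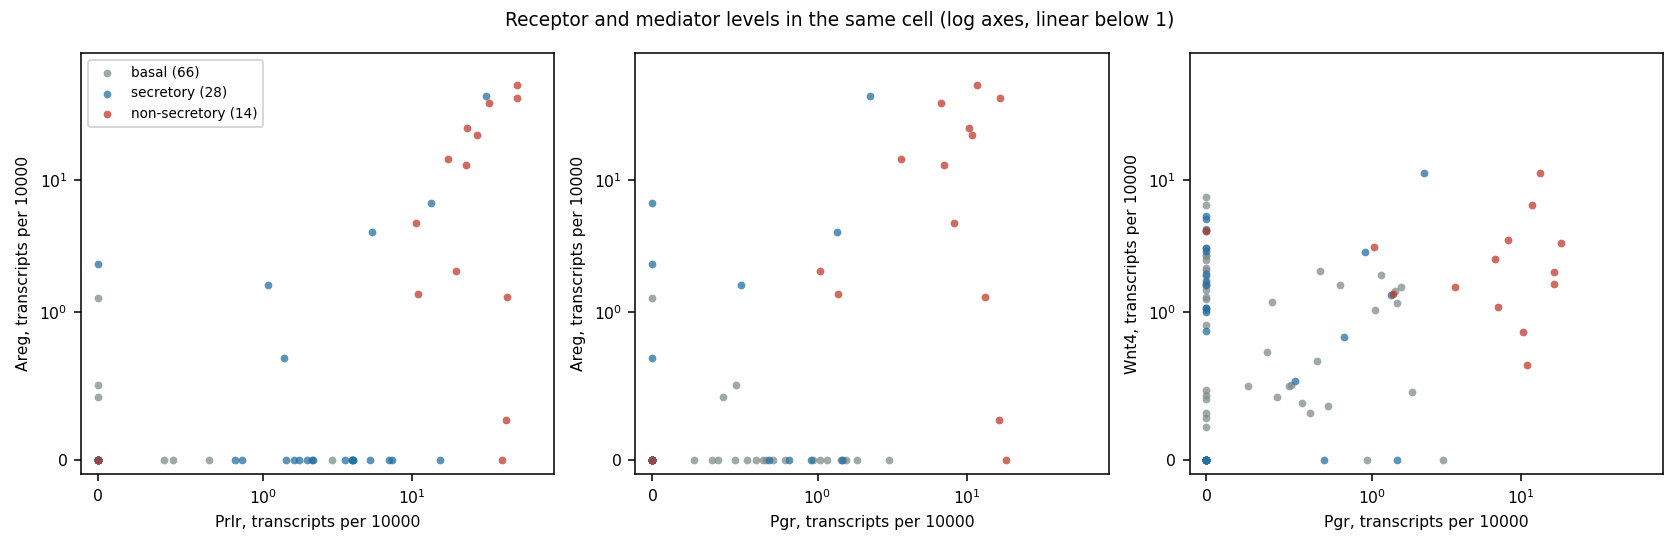
Each point is 1 cell, with the level of a receptor on the horizontal and of a mediator on the vertical axis, in transcripts per 10000 (log axes, linear below 1). Most non-secretory cells lie above 10 on the Prlr axis and span 0 to 52.2 for Areg, 1 secretory cell reaches 42.6 for Areg, and basal cells lie on or near the axes except for Pgr with Wnt4.

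The plates were compared over all luminal cells, 2 libraries each. None of 3783 genes passed in edgeR, 0% called, with 120 at an unadjusted p under 0.05 and 1 gene called by DESeq2. Of the 10 genes 9 were tested and 0 called, the largest difference being that of Foxa1, 2.16 ± 1.08 on the log2 scale higher on plate 2 (edgeR adjusted p = 0.999). Non-secretory cells made up 4 of 20 luminal cells on plate 1 and 10 of 22 on plate 2, and the part of that share in the plate values was not tested. Without plate 1 library 3, 102 of 4529 genes passed, 1.61% of those tested being higher on plate 2. Prlr (2.65), Pgr (2.47), Areg (10.1), Cited1 (4.67), Foxa1 (5.96) and Stc2 (3.43) were among them, against a single library with 2 non-secretory cells of 8, and the lone library is assumed there to vary like the others. Without plate 1 library 1, 28 genes passed, and without plate 2 library 3, 85. In the latter 0.615% of genes were higher on plate 2, among them Foxa1 (2.85, edgeR adjusted p = 0.00109).

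Genes up and down the pathways of the receptors were followed as lists, between non-secretory and secretory cells of plate 2. The lists were chosen with earlier results of these data known, and a gene scarce in 1 class could enter only through the other. Over all genes tested there, 2.60% were higher and 3.29% lower in non-secretory cells. Where the fit over 4 libraries with 2 cells per sum gave another count for a list, it stands beside it, and 4.95% of its genes were higher and 6.75% lower. Of 10 genes of prolactin and STAT5 signalling 4 were tested. Jak2, the kinase bound to the prolactin receptor, was higher in non-secretory cells by 4.93 ± 1.56 (edgeR adjusted p = 0.0296), on 45 against 1 transcripts, a ratio of 25.4 (exact 95% counting interval 4.33 to 1024). Elf5, a factor of secretory differentiation, was lower, at -5.83 ± 1.23 (edgeR adjusted p = 0.000147), on 2 against 79 transcripts, a ratio of 70.1 (18.8 to 589) in favour of secretory cells. Stat5a (0.59 ± 1.13) and Stat3 (0.44 ± 0.95) did not pass, and the median of the 4 was 0.52 beside 0.19 over all genes tested. Over 4 libraries 2 of the list were tested, and Elf5 was lower while Jak2 was below the filter. Over all cells Socs3, a feedback inhibitor of cytokine signalling, stood at 4.26, 0.573 and 4.92 per 10000 in non-secretory, secretory and basal cells. Between the luminal classes it was below the filter, and between luminal and basal cells it did not pass (-0.91 ± 0.57, edgeR adjusted p = 0.362).

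In the Wnt list 4 of 22 genes were tested, and 1 was higher and 1 lower. Wnt5a, a ligand that mostly signals without beta-catenin, was higher by 5.41 ± 1.48 (edgeR adjusted p = 0.00682), on 74 against 1 transcripts, a ratio of 41.7 (7.26 to 1670). Tcf7l2, a partner of beta-catenin in the nucleus, was lower, at -3.59 ± 1.04 (edgeR adjusted p = 0.0134). Ctnnb1 (1.20 ± 0.91) and Lrp6 (-0.04 ± 1.07) did not pass. Over 4 libraries 3 were tested, 0 were higher, Wnt5a being below the filter, and Tcf7l2 was lower. Against basal cells 10 of the list were tested and 3 were lower in luminal cells, as were 8.07% of all genes tested. These were Tcf7l1 (-4.35 ± 0.59), Lgr4, an R-spondin receptor (-3.62 ± 0.51), and Sfrp1, a secreted Wnt inhibitor (-3.28 ± 0.63).

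Genes of the amphiregulin branch were too sparse for the test, 0 of 11 tested in either comparison, so their transcripts are given. Egfr, the receptor of amphiregulin, gave 0 transcripts in non-secretory cells, 14 in secretory and 71 in basal cells, where Areg gave 584, 28 and 4. The count of 0 allows up to 0.0887 per 10000 in non-secretory cells. Egfr was found in 27 of 66 basal, 7 of 28 secretory and 0 of 14 non-secretory cells, while Areg was found in 3, 6 and 12. Adam17, which releases amphiregulin from the membrane, gave 13, 8 and 68 transcripts, and Erbb2 25, 19 and 10. Nrg1, another ligand of the family, gave 100 transcripts in basal cells and 0 in luminal cells. Of the RANK and calcitonin branch 3 of 5 listed genes were matched to a row. Tnfrsf11a gave 2, 19 and 45 transcripts, and its ligand gene Tnfsf11 was not matched.

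Of 6 genes of the growth hormone and IGF axis 3 were tested, and Igf1r, the IGF receptor, was lower in non-secretory cells, at -5.11 ± 1.55 (edgeR adjusted p = 0.0202), on 1 against 36 transcripts, a ratio of 63.9 (10.8 to 2592) in favour of secretory cells. Irs2 and Irs1 did not pass, and over 4 libraries Igf1r alone was tested and was lower. Of 16 luminal factors and estrogen receptor cofactors 6 were tested and 0 passed, among them Runx1 (-0.62 ± 0.89) and Xbp1 (0.52 ± 0.91). Over 4 libraries 6 were tested and 2 were lower in non-secretory cells, Ehf, an ETS factor gene (-2.75 ± 0.65, edgeR adjusted p = 0.000974), and Tfap2c, an AP-2 factor gene (-5.75 ± 1.05, edgeR adjusted p = 1.58e-05), the latter on 1 against 53 transcripts, a ratio of 60.4 (10.4 to 2432) in favour of secretory cells. Against basal cells 8 were tested, and Xbp1 was higher in luminal cells (1.36 ± 0.33, edgeR adjusted p = 0.0129) and Tfap2c lower (-2.08 ± 0.46, edgeR adjusted p = 0.00696). None of 14 other nuclear receptors was tested between the luminal classes. The glucocorticoid receptor gene Nr3c1 gave 4, 28 and 182 transcripts in non-secretory, secretory and basal cells and was lower in luminal than in basal cells (-1.86 ± 0.57, edgeR adjusted p = 0.0444). Of 7 surface and secreted genes known from hormone-sensing cells 5 were tested and 4 were higher in non-secretory cells, beside 2.60% of all genes tested. Over 4 libraries 3 were tested and 2, Fgfr2 and Prom1, were higher. The 4 genes, on 0 to 3 secretory transcripts each, entered only through the non-secretory sums, so their direction was set by the filter. Fgfr2, a fibroblast growth factor receptor gene, was higher by 5.41 ± 1.18, on 229 against 2 transcripts, a ratio of 64.5 (17.7 to 536). Ly6a, which encodes Sca-1, stood at 146 against 3 transcripts, a ratio of 27.4 (9.20 to 135), and Prom1 at 58 against 2, a ratio of 16.3 (4.33 to 138). Il33, a cytokine gene, stood at 76 against 0, which is 14.3-fold higher against a floor of 3 counts over the group, with a counting interval that starts at 11.3. Cd9 (0.51 ± 0.75) did not pass. Stc1 and Pthlh of this list were not tested between the luminal classes. In non-secretory, secretory and basal cells Stc1 gave 8, 13 and 0 transcripts and Pthlh 0, 0 and 33, so neither was highest in non-secretory cells.

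The genes whose pattern was most like that of Prlr and Areg were taken by Pearson's correlation of log2(CPM + 1) over 12 library and class sums, among 3543 genes. For Prlr these were Tmprss2 (0.965), Psme1 (0.953), Krt18 (0.953), Gipc2 (0.952) and Krt19 (0.942), of which Krt18 and Krt19 named the luminal cells. For Areg they were Il8 as the table lists it (0.994), Clip4 (0.989), Il33 (0.988), Cyp3a57 (0.983) and Tagln2 (0.953). Il8 stood at 4.08, 0.0337 and 0.00891 per 10000 in non-secretory, secretory and basal cells, and Tmprss2, a membrane serine protease gene, at 11.0, 1.65 and 0.0178. The sums share libraries and cells, so these values describe likeness only.

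Position bears on which counts are certain. In the GENCODE annotation of GRCm38 (mm10) Gata3 lies on chromosome 2 at 9857078 to 9890034 and overlaps 4930412O13Rik on the opposite strand and 9230102O04Rik on its own strand, and both have rows of their own. Prlr, on chromosome 15 at 10177238 to 10349180, overlaps Gm21973 on the same strand, and Tbx3, on chromosome 5 at 119670669 to 119684724, overlaps Tbx3os1 on the opposite strand. How the counting treated strand and shared sequence is not given in the sources used here, so counts of these 3 genes are less certain. The annotation shows no overlap for Areg, Wnt4, Pgr, Esr1, Stc2, Foxa1 and Cited1.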

How the data were processed

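Molecules of sorted cells were tagged and counted by SORT-seq, per the labels' protocols. The submitters' processing notes list BWA 0.6.2-r126 and mm10 without a role. The authors deposited expected counts, estimated molecules per gene and well; the values follow the correction for shared 4-base tags. They were rounded to whole numbers, and 81 spike-in rows were left out. Library totals ran from 101158 to 598625 transcripts. No doublet caller was run. The 10 genes and all gene lists were chosen with earlier results of these data known.

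For each class, counts of a library's cells were added up. These sums entered edgeR 4.0.16 under R 4.3.3: filterByExpr, then TMM scaling, then the quasi-likelihood test, called at 0.05 after Benjamini-Hochberg adjustment. DESeq2 1.42.0 was an alternative. An approximate SE was obtained by dividing the log2 difference by the square root of F. The scripts were tested on simulated data. Joint detection was counted over cells with scipy 1.17.1; intervals and floors of 3 counts cover counting error only, at 95%. Named genes were the 10 genes, up to 4 passing and 2 other tested genes of each list, and the 5 genes most like Prlr and Areg. Socs3, Stc1, Pthlh and the genes named from lists with none tested were chosen after their values were seen. Library numbers do not pair plates: deviations of same-numbered libraries correlated at -0.167. Depth, class limits, filters, left-out libraries and blocks were varied.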

Additional observations from a re-analysis of the deposited data

Results flagged for a closer look

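Areg in secretory cells of plate 1 library 3 stood at 3.50 per 10000, while the other 3 libraries of that class were at 0. Of these, plate 2 library 1 held 12378 transcripts, which allows up to 2.42 per 10000. It was the only 1 of 33 groups of 4 libraries flagged for a sample far from the rest, where chance gives about 1 in 20 for normal values. With 3 libraries at 0 any value above 0 is flagged, so the flag does not measure chance here. A single cell held 19 of the 28 transcripts.

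Plate 2 library 4, whose kept cells were all basal, held 13 Prlr transcripts in wells below the cell minimum, against 1 in 351853 transcripts of its kept cells. They lay in 5 wells of 199 to 1063 transcripts, of which 4 also held a transcript of Krt8, Krt18 or Krt19. Wells under 500 transcripts held 24.3 Prlr transcripts per 10000 in plate 2 library 1 and 9.78 in plate 2 library 3.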

How the results depend on the processing

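Between the luminal classes the 120 calls became 191 with no replicate block, 67 with DESeq2, 20 with no low-count filter, and 241 both with the Trf limit at 10 per 10000 and with at least 5 cells and no block. With 2 cells per sum, leaving out each library in turn gave 116 to 220 calls, and with 1 cell per sum and cells led by another type left out, 187. Wnt4 passed with total counts in place of TMM (edgeR adjusted p = 0.0362). Of 18 alternatives 3 repeated the same sums (Trf limit at 2, plate 2 alone, cells led by another type left out). Over the other 15, the 8 genes tested gave 112 values, all of the same direction and 105 on the same side of the threshold. For Pgr, Areg, Cited1, Foxa1 and Stc2 the filter, where used, left that direction little room. Foxa1 was not tested in 6 of the 15, and Areg and Cited1 in 1. The block, the only form of pairing, changed no call among the 8 genes here.

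Between luminal and basal cells the 505 calls became 1511 with no filter, 786 with a stricter marker rule, 939 on plate 2 alone, 835 without cells led by another type, and 436 to 848 with each library left out. Of 18 alternatives 1 repeated the same sums, and over the other 17 the 5 genes tested gave 83 values, all with the same direction and call, while Stc2 was not tested in 2. Of the other 5 genes, Areg, Cited1 and Foxa1 were tested in 9 of the 17 and passed in each. With the filter in use they entered through the luminal sums, as did Prlr, Pgr and Stc2, which left the direction of these genes little room. Esr1 passed in the 1 in which it was tested, and Tbx3 passed with no filter (0.0387) but not on plate 2 alone (0.0783). No paired fit could be made there, since no library held 3 cells of both classes.

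Between plates the 0 calls became 1 with DESeq2, 53 with no filter, 0 to 102 with each library left out, 0 with the library number as replicate block and 37 with crossed numbers as block. The direction turned for Cited1 with the block (1.13), crossed (1.08), and without plate 1 library 3 (4.67) or plate 2 library 3 (0.48). With each library left out the value ran from -1.29 to 10.1 for Areg, from -1.19 to 4.67 for Cited1 and from -0.48 to 2.71 for Tbx3. It turned for Areg without plate 1 library 1 (-0.81) or plate 2 library 1, for Tbx3 without plate 1 library 1 (-0.45) or plate 2 library 3, and in secretory cells alone for Prlr (-0.061), Wnt4 (-1.31) and Gata3 (-0.26). Foxa1 passed with no filter (2.19) and crossed (2.61). The cause of these changes was not tested.

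The share of non-secretory cells with a receptor and a mediator was 100% with the Trf limit at 2 per 10000 and 85.7 to 100% with each library left out, and thinning gave 70.2%. The number of genes highest in that class was 9 to 10 with each library left out. Between the luminal classes, fits at 3000 transcripts per cell, with the stricter marker rule, and with a library left out could not be made, each leaving fewer than 2 libraries. Depth limits Esr1 and Tbx3 most.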

Other observations

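Some relatives of the 10 genes were found mainly outside non-secretory cells. These genes belong to the lists above and were picked after their values were seen, and the values are pooled transcripts in 14 non-secretory, 28 secretory and 66 basal cells. Tbx2, the neighbour of Tbx3 in the T-box family, gave 0, 0 and 71 transcripts where Tbx3 gave 40, 5 and 20. Wnt5b gave 0, 51 and 10 where Wnt5a gave 171, 6 and 123. The R-spondin receptor genes Lgr4 and Lgr5 gave 0, 5 and 113 and 22, 36 and 59. Pthlh, which encodes parathyroid hormone-related protein, gave 0, 0 and 33. Btc, which encodes the EGF family ligand betacellulin, gave 16, 2 and 0, and Myb, a transcription factor gene, gave 31, 0 and 1. None of these differences was tested between the luminal classes except that of Wnt5a.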
